A study of Mus musculus with 48 samples.

Results

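The box C/D small nucleolar RNAs (snoRNAs) were followed in the thoracic mammary gland of aging mice. They were taken as every row of the deposited expression table with the biotype snoRNA and a symbol that starts with Snord, which gave 98 rows of 55487 genes, under 97 symbols because Snord80 has 2 rows. All mice carried the MMTV-rtTA transgene, in which the mouse mammary tumour virus promoter drives a transactivator that needs doxycycline. With it they had a tet-op-Esr1 or a tet-op-CYP19A1 responder, for estrogen receptor alpha or aromatase. Each model gave 8 groups of 3 libraries, 48 libraries in all. Induced groups had the transgene on for 1 week at 12 or at 18 months of age, for 6 or 12 months at 24 months of age, and for 18 months at 30 months of age. Uninduced groups were taken at 12, 18 and 24 months. No uninduced gland of 30 months and no gland with doxycycline but without a responder is among the groups, so drug, transgene and, at 30 months, age cannot be told apart. The titles name biological replicates and give each library a number of its own, without saying that it marks a mouse, so a p-value here speaks of the spread among libraries.

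Box C/D snoRNAs are short nucleolar RNAs with a box C near the 5′ end and a box D near the 3′ end, which fold together and bind the proteins Snu13, Nop56, Nop58 and the methyltransferase fibrillarin (Fbl). Most of them pair with ribosomal RNA and guide the methylation of a ribose there, while a few, among them U3 and U8, act in the cutting or folding of the ribosomal precursor. In mammals most are cut out of the introns of host genes, many of which encode ribosomal proteins or translation factors, and a few, such as U8 and U13, are transcribed from their own promoters.

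The sequences below are those the results turn on, read from the GENCODE M21 transcripts and given on mm10 coordinates, 5′ to 3′, with the first TGATGA within the first 25 bases (box C) and the last CTGA within the last 25 bases (box D) in capitals. TGATGA in that window was found in 70 of the 98 Snord genes, CTGA in 97 and both in 69 (70.4%). Both were found in 0 of 42 Snora genes, the H/ACA class, which folds without these boxes, and in 243 of the 1367 other snoRNA rows (17.8%). Only the strand of the RNA was searched, and the capitals mark letters, not tested boxes. The first 4 are the most abundant large members.
Snord17, chr2:144265979-144266216, minus strand: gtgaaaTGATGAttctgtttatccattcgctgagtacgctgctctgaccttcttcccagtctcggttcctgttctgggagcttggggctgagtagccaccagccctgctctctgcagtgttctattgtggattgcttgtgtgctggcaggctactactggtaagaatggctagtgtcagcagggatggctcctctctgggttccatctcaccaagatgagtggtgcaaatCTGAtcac
Snord15b, chr7:99479563-99479707, minus strand: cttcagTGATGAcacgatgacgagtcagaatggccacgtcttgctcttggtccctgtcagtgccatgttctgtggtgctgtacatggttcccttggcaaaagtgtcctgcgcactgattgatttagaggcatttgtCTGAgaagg
Snord15a, chr7:99482785-99482932, minus strand: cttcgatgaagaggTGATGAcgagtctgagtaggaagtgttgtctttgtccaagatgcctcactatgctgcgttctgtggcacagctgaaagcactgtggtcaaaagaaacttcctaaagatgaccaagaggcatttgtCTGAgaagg
Snord22, chr19:8725866-8725991, plus strand: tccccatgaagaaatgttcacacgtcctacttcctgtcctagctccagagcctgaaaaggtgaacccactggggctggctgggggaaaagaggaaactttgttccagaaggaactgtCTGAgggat
U8 follows, without a host gene.
Snord118, chr11:69073427-69073561, plus strand: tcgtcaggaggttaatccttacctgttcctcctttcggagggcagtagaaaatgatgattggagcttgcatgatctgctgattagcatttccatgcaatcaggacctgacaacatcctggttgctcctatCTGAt
Snord45c is the member that differed between the models, Snord45b is its shorter neighbour in the same host, and Snord66 is as long as a read.
Snord45c, chr3:153912125-153912204, minus strand: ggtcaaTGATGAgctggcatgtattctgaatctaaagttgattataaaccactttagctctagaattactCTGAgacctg
Snord45b, chr3:153910563-153910633, minus strand: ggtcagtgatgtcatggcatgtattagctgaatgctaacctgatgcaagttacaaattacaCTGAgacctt
Snord66, chr16:20684239-20684313, plus strand: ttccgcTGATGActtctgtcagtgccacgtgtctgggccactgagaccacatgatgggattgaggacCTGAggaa
The Snord80 rows are nested, and the Snord14c and Snord14d copies differ at 2 of 86 bases, G47A and A49G (Snord14c base, position counted from its 5′ end, Snord14d base).
Snord80, 81 nt row, chr1:161037601-161037681, plus strand: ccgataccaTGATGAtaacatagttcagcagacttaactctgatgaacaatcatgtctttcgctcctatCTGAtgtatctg
Snord80, 77 nt row, chr1:161037604-161037680, plus strand: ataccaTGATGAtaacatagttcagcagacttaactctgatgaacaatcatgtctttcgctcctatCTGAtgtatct
Snord14c, chr9:40803583-40803668, plus strand: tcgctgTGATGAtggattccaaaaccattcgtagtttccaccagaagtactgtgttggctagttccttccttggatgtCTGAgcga
Snord14d, chr9:40803995-40804080, plus strand: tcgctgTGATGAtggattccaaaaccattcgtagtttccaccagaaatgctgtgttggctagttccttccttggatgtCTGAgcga
Of the 17 Snord116l genes 14 shared the sequence shown for Snord116l1. Counted from its 5′ end and with its base first, Snord116l9 differed by G1A and C16T, Snord116l14 by G83T, and Snord116l12 by C74A, T77A and C81A.
Snord116l1, chr7:59894620-59894713, minus strand: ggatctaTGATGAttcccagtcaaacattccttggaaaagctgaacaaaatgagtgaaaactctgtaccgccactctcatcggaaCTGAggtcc

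The values are TPM, abundances per length scaled to 1 fixed total per library, so depth beyond the stated minimum of 50 M reads is unknown and fewer cells of a type cannot be told apart from less RNA per cell. Luminal (Krt8, Krt18, Krt19, Epcam) and basal (Krt5, Krt14, Acta2, Oxtr) epithelial markers summed to 65.8 to 678 and 38.8 to 377 TPM, adipocyte markers to 936 to 5538 TPM and skeletal muscle markers to 115.5 to 28361 TPM. The 4 neuronal markers summed to at most 1.00 TPM. Ribosomal RNA readout (CT010467.1, AY036118 and Lars2) took 0.0752% of TPM in the median library and over 10% in 9 libraries, up to 67.2%. Those 9 were CYP19A1 12-month uninduced replicates 1 and 3, all 3 CYP19A1 12-month libraries with 1 week of induction, CYP19A1 18-month uninduced replicate 1, CYP19A1 24-month uninduced replicate 3, and replicate 3 of the Esr1 glands induced for 6 and for 18 months. The libraries of 24 and 30 months were also titled in a different way from the younger ones, and a batch that began there and age cannot be told apart.

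Of the 98 Snord genes 32 were listed at 0 in all 48 libraries and 66 were above 0 in at least 1. Only 8 were above 0 in every library, and 26 had a median above 0. A library listed between 52 and 83 of them at 0, with a median of 69. Among the 66 are 14 identical Snord116l copies, which move this count together. They were above 0 in the same 9 libraries, each at 0.09 TPM or less. The members followed their length: all 29 genes shorter than 74 nt were listed at 0 everywhere, and so were all 938 genes of any kind that short in the table. Reads were single ends of 75 bases per the labels' protocols. Among the 69 Snord genes of 74 nt or more, 3 were at 0 everywhere: Snord1a (74 nt), Snord14a (87 nt) and Snord116l12 (94 nt).

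The shortest gene above 0 also differed with age. In the 24- and 30-month libraries it had 74 or 75 nt in both models, against 75 or 76 nt in the Esr1 and 76 or 77 nt in the CYP19A1 libraries of 12 and 18 months. Snord66, a guide for 18S ribosomal RNA in human that lies in the translation factor gene Eif4g1, has exactly 75 nt. It was above 0 in 15 of the 24 libraries of 24 and 30 months and in 0 of the 24 libraries of 12 and 18 months. Where it was above 0 it stood at 10.6 TPM or more. In 7 of the 12 Esr1 libraries of 12 and 18 months, however, the shortest gene above 0 had 75 nt. Snord1b, also of 75 nt, was above 0 in 5 of the older libraries and in 1 younger one, of the Esr1 model. The part that this step in the shortest length has in differences with age was not tested.

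**Figure D1:**
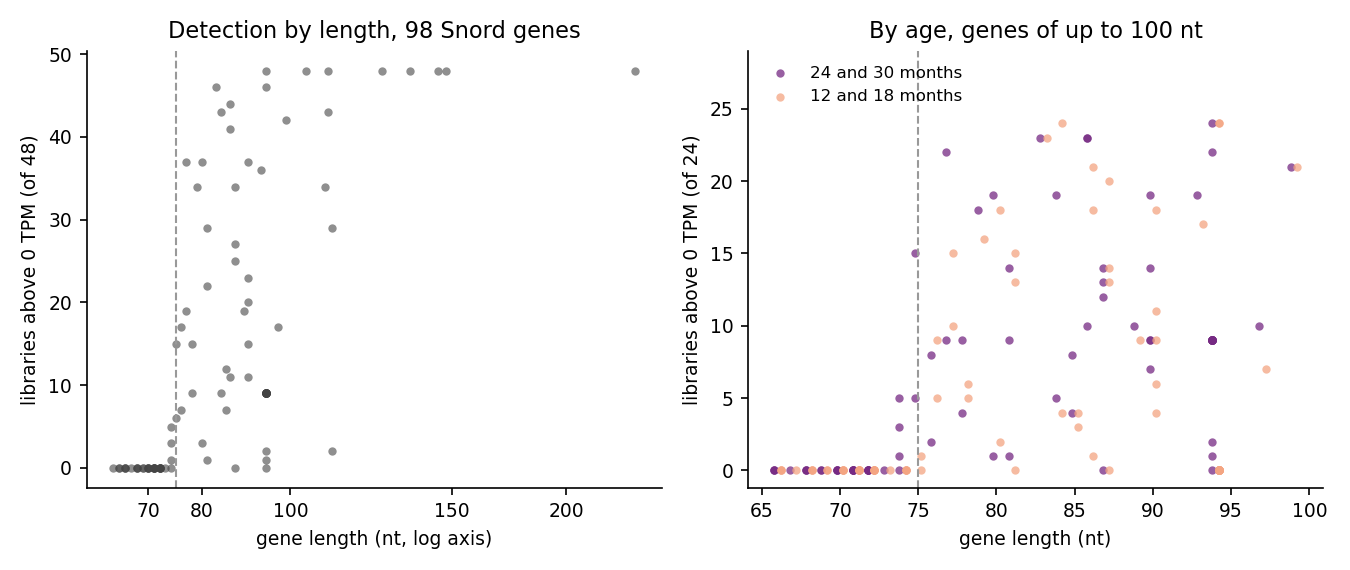
Left, each point is 1 of 98 Snord genes, with its length in nt on a log axis and the number of the 48 libraries in which it was above 0 TPM. Right, the genes of up to 100 nt, with the number of the 24 libraries of 24 and 30 months (purple, shifted left) and of the 24 libraries of 12 and 18 months (orange, shifted right) above 0. The dashed line marks the read length of 75. All 29 genes under 74 nt sit at 0.

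A few large members made up most of the signal. Summed Snord TPM ranged from 633 in replicate 1 of the uninduced 12-month Esr1 glands to 3756 in replicate 1 of the CYP19A1 glands after 1 week at 18 months, with a median of 1539. This was 0.0633% to 0.376% of all TPM, beside 1494 to 4963 TPM for the 42 Snora genes. Snord17, Snord15b and Snord22 together held 56.9% to 91.7% of the Snord sum, 79.5% in the median library.

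Snord17 (238 nt, in an intron of the sorting nexin gene Snx5), a guide for 28S ribosomal RNA in human, led with a median of 664 TPM and a range of 226 to 1752. Its host had a median of 42.2 TPM. Snord15b (145 nt), in the ribosomal protein gene Rps3, followed at 312 TPM (132 to 835). Snord15a (148 nt), from another stretch of the same host and also a guide for 28S ribosomal RNA in human, stood at 35.1 TPM (13.5 to 83.9). Their order never changed: Snord15b was 4.99 to 15.96 times Snord15a in the 48 libraries, with a median of 9.05. The ratio was 9.77 in the median of the 24- and 30-month libraries and 7.83 in that of the 12- and 18-month libraries, with ranges that overlap, and it was not tested. Snord22 (126 nt, host Snhg1), which acts in 18S processing in frogs, had a median of 203 TPM (75.7 to 556).

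The remaining members of the 15 most abundant had medians of 7.09 to 41.8 TPM. Snord21, in the ribosomal protein gene Rpl5, was the next at 41.8 TPM, with 7.94 to 323 TPM. The highest value came from replicate 1 of the uninduced 12-month CYP19A1 glands, the library with the most ribosomal RNA. Snord13 (U13) and Snord118 (U8), which have promoters of their own, stood at 21.1 TPM (4.16 to 71.3) and 14.05 TPM (3.93 to 43.1), and neither was at 0 in any library. No row carried a Snord3 (U3) symbol.

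Snord32a and Snord33, both of Rpl13a, had medians of 19.7 and 12.1 TPM, and Snord47 of Gas5 had 17.2 TPM. Snord83b of Rpl3 had 11.7 TPM, Snord55 10.1 TPM and Snord89 10.9 TPM. Snord14c and Snord14d, U14 copies of the heat shock gene Hspa8 that act in 18S processing, had 11 and 7.09 TPM. A full read of 75 bases within either copy covers the 2 bases at which they differ. A read trimmed shorter may miss these bases, and how many such reads there were is unknown. The order follows the medians alone, from Snord17 downward, because every range overlaps the next.

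**Figure D2:**
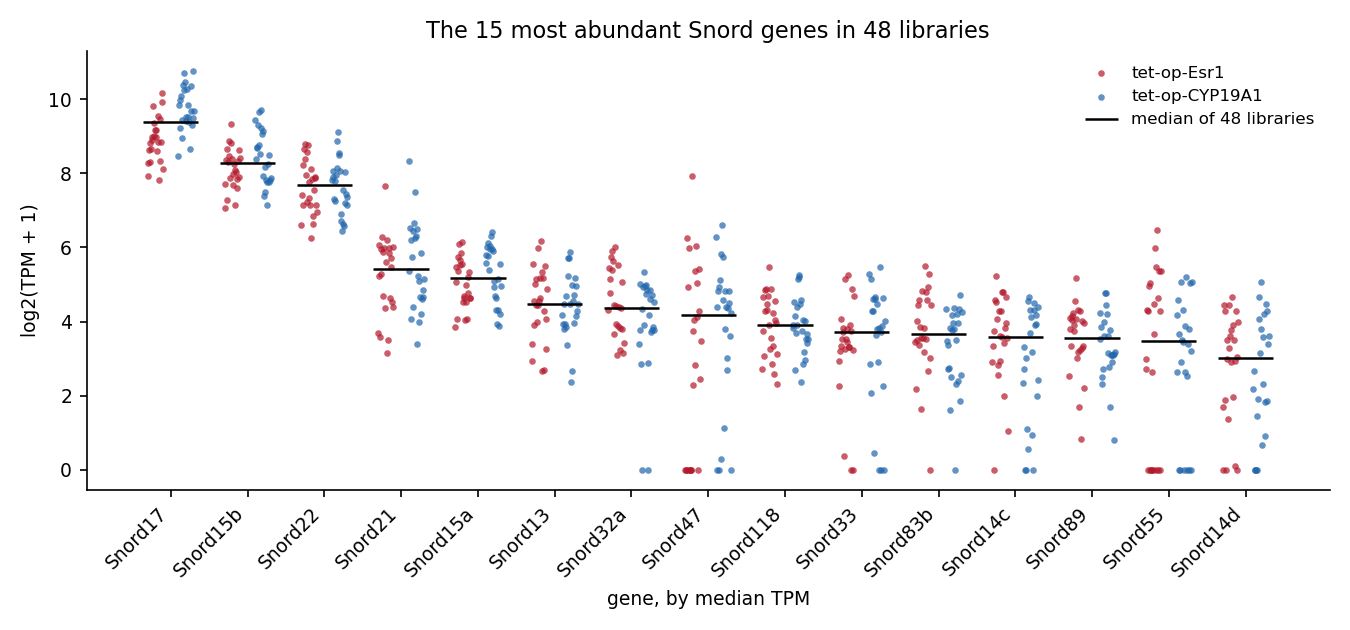
The 15 Snord genes with the highest median, ordered by it, on a log2(TPM + 1) axis. Each point is 1 library, tet-op-Esr1 in red on the left and tet-op-CYP19A1 in blue on the right, and the black bar is the median of all 48 libraries. Snord17, Snord15b and Snord22 have the highest medians, 664, 312 and 203 TPM, and Snord47 and Snord55 have many libraries at 0.

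By host, 54 members lay within introns of a host gene on the same strand and 41 overlapped an annotated exon of it, where reads of host and snoRNA cannot be told apart. Snord13, Snord118 and Snord104 had no host. The 95 hosted members fell on 54 hosts, and members of 1 host differed widely. In Rpl13a, a ribosomal protein gene with a median of 637 TPM, Snord32a (83 nt), Snord33 (84 nt) and Snord35a (90 nt) had medians of 19.7, 12.1 and 3.33 TPM, while Snord34 (70 nt) was at 0 everywhere. In Gas5, a growth-arrest noncoding RNA with a median of 71.9 TPM, Snord47 ranged from 0 to 245 TPM and Snord78 (66 nt) was at 0 everywhere. The nested Snord80 rows of 81 and 77 nt had medians of 3.58 and 0 TPM, and reads within their overlap cannot be assigned.

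Rpl23a, Nop56 and Snhg5 held only members under 74 nt, all at 0 everywhere. Rpl23a, at 520 TPM in the median library, held Snord42a (65 nt), Snord42b (69 nt) and Snord4a (71 nt). Nop56, at 24.0 TPM and itself a core protein of these particles, held Snord57 (72 nt) and Snord110 (68 nt). Snhg5, at 13.7 TPM, held Snord50a and Snord50b (72 nt each). Rabggtb, a subunit of the enzyme that lipidates Rab proteins, held Snord45c (80 nt), above 0 in 37 libraries, and Snord45b (71 nt), at 0 in all. Rian, a host of many snoRNAs in the imprinted Dlk1-Dio3 region, held no row with a Snord symbol.

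The 17 Snord116l genes of Snhg14, the imprinted Prader-Willi region RNA known for its expression in neurons, each stayed at or near 0. None exceeded 0.09 TPM alone, and their sum in a library was at most 1.26 TPM. Of them 16 were above 0 in at least 1 library. The libraries concerned were 9, all of 24 or 30 months. The 14 identical copies had identical values in every library, and 16 other snoRNA rows carry the same sequence, so reads of these copies cannot be told apart. The sum above leaves those 16 rows out. Snhg14 itself had 1.32 to 8.07 TPM. The neuronal markers were at or near 0, with medians of 0.03 (Snap25) to 0.14 TPM (Tubb3).

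Whether a host and its snoRNAs varied together was examined for 6 hosts. Snhg1, a noncoding RNA at 5.53 to 52.7 TPM, and Snord22 gave Pearson's r = 0.49 over 48 libraries (permutation p = 0.00039, adjusted over 4 hosts 0.00156) and Spearman's rho = 0.50 (permutation p = 0.00034, adjusted 0.00136). Without the 2 libraries farthest from the median of Snhg1, r was 0.51. It was 0.44 within the 24- and 30-month libraries, 0.36 within the 12- and 18-month libraries and 0.44 for deviations from the group means. Snord22 overlaps an exon of Snhg1, so the 2 values may share reads.

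The other hosts gave weaker relations. For Rpl13a, r was 0.31 (permutation p = 0.0314, adjusted 0.0628) and rho 0.45 (permutation p = 0.00152, adjusted 0.00304). Without the 2 farthest libraries r was 0.37. It was 0.20 within the 24- and 30-month libraries and 0.45 within the 12- and 18-month libraries. After rescaling the TPM to the median-of-ratios factors or to the protein-coding sum r was 0.16 and 0.20, so this relation moved with the scaling. For Gas5, r was 0.05 (permutation p = 0.739, adjusted 0.848) and rho 0.02 (permutation p = 0.909, adjusted 0.958). It was 0.09 within either age set and -0.05 without the 2 farthest libraries. Nop56 and Rian gave no value because no member was above 0 or present.

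**Figure D3:**
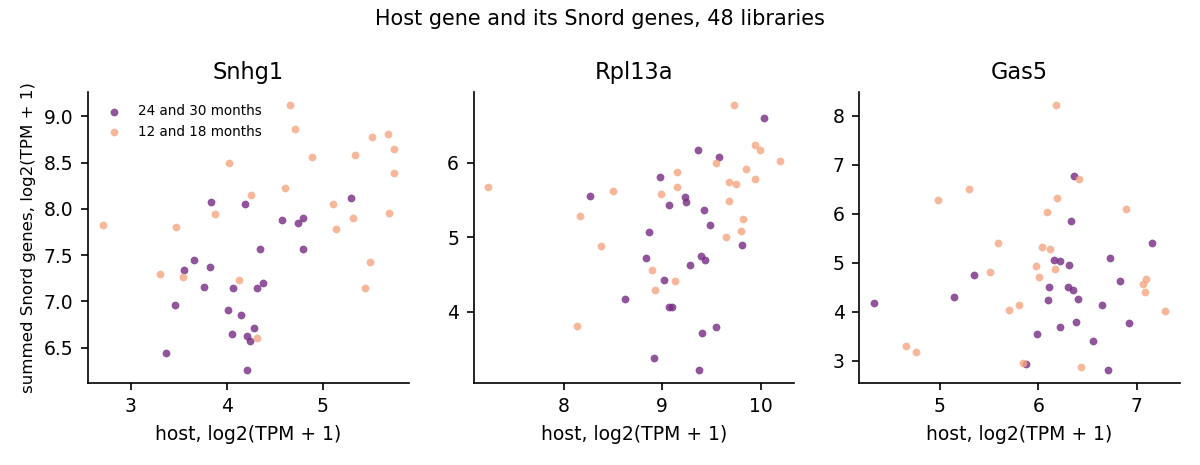
Each point is 1 library, with the host gene on the horizontal and the summed Snord genes of that host on the vertical axis, both as log2(TPM + 1), for Snhg1 (1 member), Rpl13a (4) and Gas5 (4). Purple points are 24- and 30-month libraries and orange points 12- and 18-month libraries. The upward drift is visible for Snhg1 (r = 0.49), and there is none for Gas5 (r = 0.05).

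For the comparisons, a gene was tested if 3 or more libraries had it at 1 TPM or above, which left 20209 genes, 46 of them Snord genes. Just inside this filter lay Snord59a (74 nt), above 1 TPM in 3 libraries, and just outside it Snord69 (80 nt), which reached 1 TPM in 2 libraries and 3.71 TPM at most. The 20 members above 0 that were not tested comprised 16 Snord116l genes, each of which stayed under 1 TPM, and 4 others. Within the 46 tested genes 40.7% of the entries were 0. A gene was called at a Benjamini-Hochberg adjusted p under 0.05 in limma, over all 20209 genes, and changes are on the log2(TPM + 1) scale, which understates those of low genes. In 15 of 16 comparisons limma called 0 members. Beside each count below stands the share of all tested genes that passed the same rule.

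Transgenic Esr1 and its induction were addressed by 4 comparisons. After 1 week at 12 months 0 members were called (all genes 0.0099%), with 1 higher and 1 lower at an unadjusted p under 0.05 (all genes 5.51%). The median change was 0.14, against 0.22 for all genes. Snord33 was the only member whose groups did not overlap (higher in 10.1% of all genes, lower in 1.88%). It stood at 9.04, 15.8 and 10.6 TPM after induction, against 3.82, 6.67 and 8.13 TPM without. The log2 change was 0.85 (SE 1.29, limma adjusted p = 0.803). After 1 week at 18 months 0 members were called (all genes 0%), with 2 higher and 0 lower at an unadjusted p under 0.05 (all genes 1.25%) and a median of 0.04 against 0.14. Snord35b was the only member without overlap (higher in 4.26% of all genes). It had 4.07, 6.65 and 6.85 TPM after induction, against 0.15, 0 and 0 TPM without, a log2 change of 2.68 (SE 0.85, limma adjusted p = 1).

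After 6 months of Esr1 induction 0 members were called (all genes 0%), with 2 higher and 2 lower at an unadjusted p under 0.05 (all genes 1.16%). The median change was -0.38, against 0 for all genes, and 2 members lay lower without overlap (all genes 0.846%). Snord45c had 12.4, 0 and 0 TPM, against 16.3, 21.2 and 26.8 TPM without induction. The log2 change was -3.21 (SE 1.03, limma adjusted p = 1). Snord67 had 0, 0.07 and 0 TPM, against 0.44, 1.31 and 1.02 TPM (log2 -0.88, adjusted p = 1). After 12 months 0 members were called (all genes 0.00495%), with 1 higher and 1 lower at an unadjusted p under 0.05 (all genes 1.38%), a median of -0.46 against 0.09, and 3 members lower and 0 higher without overlap (all genes 0.762% and 5.42%). Snord71 was at 0 in all 3 induced libraries, against 1.97, 4.2 and 1.62 TPM without induction (limma adjusted p = 1). Snord87 was likewise at 0 in all 3, against 1.70, 3.59 and 1.39 TPM (limma adjusted p = 1). Snord45c, the remaining one, had 5.45, 3.76 and 15.98 TPM (log2 -1.45, adjusted p = 1). Both comparisons use the same 3 uninduced libraries.

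Induced CYP19A1 was compared in the same 4 ways. After 1 week at 12 months 0 members were called (all genes 0%), with 0 higher and 3 lower at an unadjusted p under 0.05 (all genes 6.78%), and 5 lay lower without overlap (all genes 1.36%). The median was -0.27, against -0.32 for all genes, in a group whose 3 libraries held 36.7% to 49.8% of TPM on ribosomal RNA, whose part was not tested. Snord89 had 4.62, 3.96 and 5.61 TPM after induction, against 17.8, 10.5 and 13.5 TPM without, a log2 change of -1.36 (SE 0.63, limma adjusted p = 0.548). Snord23, of the nucleolar protein gene Nop53, was at 0 in all 3 induced libraries, against 1.22, 0.72 and 1.07 TPM (limma adjusted p = 0.548). The other members without overlap were Snord22, Snord83b and Snord13. At 18 months 0 were called (all genes 0%), with 3 higher and 1 lower at an unadjusted p under 0.05 (all genes 1.46%) and a median of 0.39 against 0.09. Snord8, of the chromatin remodeller gene Chd8, was the only member without overlap (higher in 2.12% of all genes). It had 13.4, 6.53 and 7.16 TPM after induction, against 1.47, 3.45 and 4.87 TPM without (log2 1.26, limma adjusted p = 1).

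After 6 months of CYP19A1 induction 0 members were called (all genes 0%), with 1 higher and 1 lower at an unadjusted p under 0.05 (all genes 1.29%) and a median of -0.34 against -0.01. Snord15a was the only member without overlap (lower in 2.11% of all genes). It had 18.7, 23.8 and 14.4 TPM after induction, against 29.5, 33.2 and 24.6 TPM without, a log2 change of -0.61 (SE 0.38, limma adjusted p = 1). After 12 months 0 were called (all genes 0.0198%), with 1 higher and 1 lower at an unadjusted p under 0.05 (all genes 1.13%) and a median of -0.15 against 0.12. Snord35b was the only member without overlap (higher in 6.78% of all genes). It had 8.48, 4.99 and 4.47 TPM, against 3.25, 0 and 0 TPM (log2 2.06, limma adjusted p = 1).

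Aging without induction was compared within each model. In the Esr1 model 0 members were called at 18 against 12 months (all genes 0%), with 2 higher and 2 lower at an unadjusted p under 0.05 (all genes 2.76%). The groups did not overlap for 2 higher and 2 lower members (all genes 1.53% and 4.17%), and the median was 0 against 0.01. Snord111, of the splicing factor gene Sf3b3, was at 0 in all 3 libraries of 18 months, against 1.89, 7.08 and 2.04 TPM at 12 months (limma adjusted p = 0.734). Snord35b had 0.15, 0 and 0 TPM, against 9.31, 6.25 and 2.68 TPM (log2 -2.63, limma adjusted p = 0.836). The higher ones were Snord15a, at 66.8, 49.9 and 44.9 TPM against 13.5, 32.3 and 43.4 TPM (log2 0.96, limma adjusted p = 1), and Snord17 (log2 0.96, adjusted p = 1). The 18-month libraries are also the controls of the Snord35b values after 1 week of induction. At 24 against 12 months 0 members were called (all genes 0.574%, of which 0.327% higher), with 3 higher and 1 lower at an unadjusted p under 0.05 (all genes 7.68%), a median of 0.35 against -0.08, and 4 members higher and 0 lower without overlap (all genes 3.86% and 8.61%). Snord66 had 10.6, 13.8 and 50.9 TPM at 24 months and was listed at 0 in all 3 libraries of 12 months (limma adjusted p = 0.134). Snord71 had 1.97, 4.2 and 1.62 TPM and was likewise at 0 at 12 months (limma adjusted p = 0.309). These 24-month libraries are also the controls of the Snord71 values after 12 months of induction. The other members without overlap were Snord53 and Snord33. As shown above, the shortest gene above 0 had 74 or 75 nt in the older and 75 or 76 nt in the younger Esr1 libraries. Snord66 has 75 nt, while Snord53, Snord33 and Snord71 have 78, 84 and 85 nt. The part of that step here was not tested.

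In the CYP19A1 model 0 members were called at 18 against 12 months (all genes 0.0099%), with 2 higher and 1 lower at an unadjusted p under 0.05 (all genes 5.61%) and a median of 0.08 against 0.18. The 81 nt row of Snord80 was the only member without overlap (higher in 1.52% of all genes). It had 5.2, 6.09 and 11.7 TPM at 18 months, against 0, 0 and 2.36 TPM at 12 months (log2 2.46, limma adjusted p = 0.875). At 24 against 12 months 0 were called, while 4.24% of all genes were, with 3 higher and 2 lower at an unadjusted p under 0.05 (all genes 14.7%) and a median of 0 against 0.22. Both Rps3 members lay lower without overlap (all genes 0.381%). Snord15b had 244, 166 and 289 TPM at 24 months, against 694, 334 and 420 TPM at 12 months. The log2 change was -1.01 (SE 0.38, limma adjusted p = 0.143), and without replicate 2 of the 12-month glands it was -1.25 (adjusted p = 0.0372). Snord15a had 29.5, 33.2 and 24.6 TPM, against 54.2, 46.5 and 63.1 TPM (log2 -0.88, limma adjusted p = 0.249). The Rps3 transcript itself had a log2 change of 0.28 (SE 0.38, adjusted p = 0.785). The 12-month group holds 2 libraries rich in ribosomal RNA, replicates 1 and 3, and the 24-month group holds 1, replicate 3. Without all such libraries the Snord15b change was -0.73. Only replicate 2 was then left at 12 months, the lowest of its group and the same library whose removal gave -1.25. Without replicate 2 of the 24-month glands Snord66 was the member called (adjusted p = 0.0225). That replicate had Snord66 at 0, while replicates 1 and 3 had it above 0. All 3 libraries of 12 months had it at 0. The shortest gene above 0 in them had 77, 76 and 76 nt, and Snord66 has 75 nt. This call therefore cannot tell age from the step in the shortest length, whose part was not tested.

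The change from 12 to 24 months was also set against each other in the models. Of 46 members 0 differed (all genes 0.0396%), with 1 higher and 0 lower in Esr1 at an unadjusted p under 0.05 (all genes 6.49%). The median difference was 0.71, against -0.32 for all genes. Among long-induced glands 30 months was compared with 24 months, with 18 and 12 months of induction. In the Esr1 model 0 members were called (all genes 0.139%, of which 0.129% lower), with 0 higher and 3 lower at an unadjusted p under 0.05 (all genes 15.9%). There 1 member lay higher and 2 lower without overlap, against 0.638% and 35.6% of all genes, and the median was -0.12 against -0.36. Snord111 was at 0 in all 3 glands of 30 months, against 3.50, 1.55 and 3.71 TPM at 24 months (limma adjusted p = 0.157). Snord14e was likewise at 0, against 0.83, 10.5 and 8.55 TPM (limma adjusted p = 0.185). In the CYP19A1 model 0 were called (all genes 0%), with 1 higher and 0 lower at an unadjusted p under 0.05 (all genes 1.64%), 1 higher and 1 lower without overlap (0.757% and 21.6%), and a median of -0.03 against -0.18. Snord72, of the ribosomal protein gene Rpl37, had 6.74, 3.14 and 3.44 TPM at 30 months and was at 0 at 24 months (limma adjusted p = 0.969). Snord47 had 11.2, 17.8 and 0 TPM, against 19.5, 27.4 and 21.7 TPM (log2 -1.95, limma adjusted p = 0.969).

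**Figure D4:**
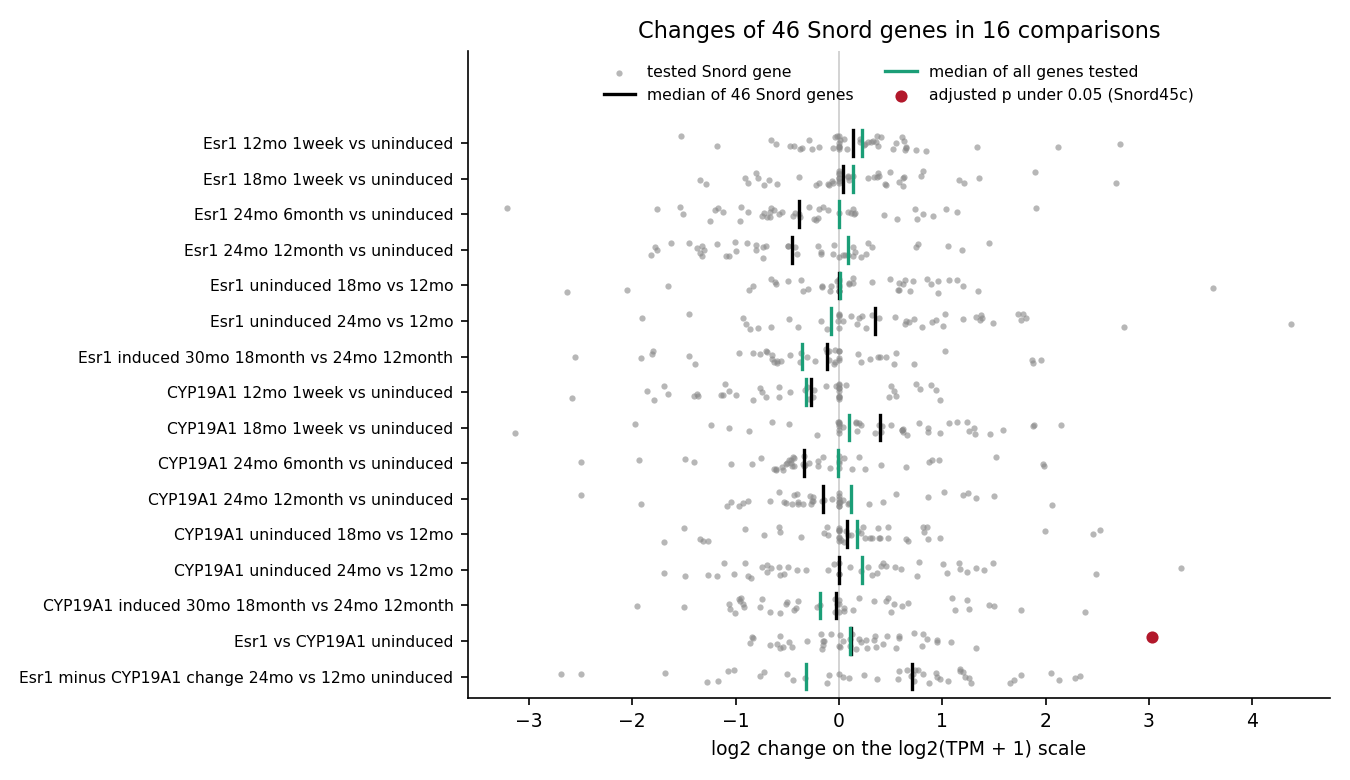
Log2 changes of the 46 tested Snord genes (grey points) in the 16 comparisons, each named with its first group on top of the ratio. Black bars are the medians of the 46 Snord genes and green bars those of all 20209 genes, and the red point is Snord45c, the only call. The points lie on both sides of 0 in every comparison.

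Between the models, uninduced Esr1 glands were set against uninduced CYP19A1 glands over 12, 18 and 24 months, with 9 libraries each. Snord45c was higher in the Esr1 glands, and it was the only member called of 46 (all genes 2.95%). It had 34.9, 29.7 and 11.2 TPM in Esr1 glands of 12 months, against 0, 0 and 0 TPM in CYP19A1 glands. At 18 months it had 6.56, 39.3 and 6.81 TPM in Esr1 glands, against 22.5, 0 and 7.08 TPM in CYP19A1 glands. At 24 months it had 16.3, 21.2 and 26.8 TPM in Esr1 glands, against 0.61, 5.96 and 0 TPM in CYP19A1 glands. The groups were thus apart at 12 and 24 months and overlapped at 18 months. Over the ages the log2 change was 3.03 (SE 0.60, 95% interval 1.82 to 4.24, limma adjusted p = 0.00131), with a median of 21.2 TPM (0 of 9 at 0) in Esr1 and 0 TPM (5 of 9 at 0) in CYP19A1 glands. Leaving out any 1 of the 18 libraries gave 2.61 to 3.37 with limma adjusted p of 0.000363 to 0.00633. Without the libraries rich in ribosomal RNA the change was 3.17, with only 1 CYP19A1 library left at 12 months.

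The induced libraries, which this comparison used only for the spread, were then examined for Snord45c, a test chosen after its difference was seen. After 1 week of induction it averaged 18.4 ± 5.27 TPM in the 6 Esr1 and 5.19 ± 5.85 TPM in the 6 CYP19A1 libraries (SD). An exact permutation test within ages gave p = 0.005, the smallest it allows, and 0.01 adjusted over the 2 such tests. The 3 CYP19A1 libraries of 12 months in it held 36.7% to 49.8% of TPM on ribosomal RNA. In them 13, 26 and 18 genes of 74 to 82 nt were above 0, against 34, 43 and 41 in the Esr1 ones. At 18 months these counts were 39, 39 and 32 in the CYP19A1 and 28, 32 and 33 in the Esr1 libraries. The part of either in this p was not tested. In long-induced glands of 24 and 30 months Snord45c averaged 6.69 ± 6.21 TPM in the 9 Esr1 and 7.51 ± 7.13 TPM in the 9 CYP19A1 libraries (SD, exact permutation p = 0.651). Whether the model difference itself changed between these sets was not tested. Rabggtb, its host, had a log2 change of 0.25 between the uninduced models (SE 0.17, limma adjusted p = 0.463). Snord45c guides 18S ribosomal RNA in human. It overlaps an annotated exon of its host and has 80 nt, close to the read length. Short genes of 74 to 82 nt were above 0 more widely in the uninduced Esr1 libraries, with a median of 36 (26 to 68) such genes against 28 (15 to 40) in the uninduced CYP19A1 libraries. The part of this in the result was not tested, and model, mouse colony and processing batch cannot be told apart.

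**Figure D5:**
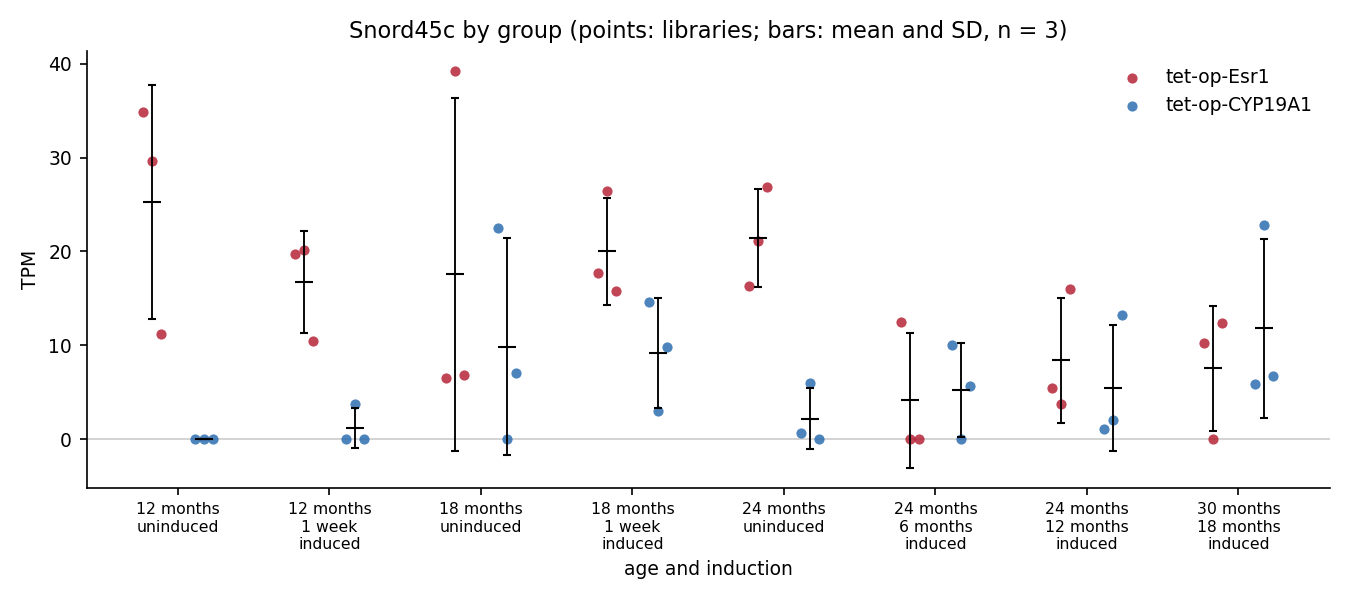
Snord45c in TPM by age and induction, with tet-op-Esr1 in red on the left and tet-op-CYP19A1 in blue on the right of each pair. Points are libraries, and bars give the mean and SD of 3. The uninduced and 1-week Esr1 libraries lie at 6.56 TPM or more, and all 3 uninduced 12-month CYP19A1 libraries lie at 0.

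The most abundant member went the other way without passing the test. Snord17 had a median of 478 TPM (245 to 908) in uninduced Esr1 and 740 TPM (354 to 1335) in uninduced CYP19A1 glands. The log2 change was -0.84 (SE 0.28, limma adjusted p = 0.0895). It passed when TPM were rescaled by median-of-ratios factors (-0.99, adjusted p = 0.0128) or to the protein-coding sum (-1.09, adjusted p = 0.00783). It also passed without replicate 3 of the 18-month Esr1 glands (adjusted p = 0.0425) or replicate 1 of the 12-month CYP19A1 glands (adjusted p = 0.0404). Without the libraries rich in ribosomal RNA the Snord17 change was -1.202. Only replicate 2 of the 12-month CYP19A1 glands, the highest of its group at 914 TPM, was then left at that age. Snx5, its host, had a log2 change of 0.42 (SE 0.21, adjusted p = 0.290), with the opposite sign. Snord15b and Snord15a had log2 changes of -0.57 and -0.54 (limma adjusted p = 0.150 and 0.192) and passed only after rescaling to the protein-coding sum (adjusted p = 0.0469 and 0.0380), while their host Rps3 had a log2 change of 0.62 (SE 0.22, adjusted p = 0.122). Over the 46 members 4 were higher and 3 lower at an unadjusted p under 0.05 (all genes 17.7%), and the median was 0.12 against 0.10 for all genes.

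The proteins of the box C/D particle were followed by their transcripts, and no protein was measured. The transcripts of the core proteins Fbl, Nop56, Nop58 and Snu13 had medians of 10.4, 24.0, 20.1 and 23.8 TPM, and none was at 0 in any library. Assembly factors, which load the core proteins onto the RNA, ranged in their medians from 2.04 TPM (Nufip1) to 14.9 TPM (Pih1d1), and Rrp9, a protein of the U3 particle, had 7.51 TPM. Of these 13 genes 0 passed in any of the 16 comparisons. The smallest adjusted p was that of Snu13, which binds the box C/D fold first, between the uninduced models (log2 0.43, SE 0.16, limma adjusted p = 0.139). All 13 had a positive log2 difference there, with a median of 0.23 beside 0.10 for all genes. They shared a sign in other comparisons too. All 13 were positive after 1 week of Esr1 induction at 12 months (median 0.32 beside 0.22 for all genes) and at 18 months (0.10 beside 0.14), and after 12 months of CYP19A1 induction (0.18 beside 0.12). All 13 were negative after 1 week of CYP19A1 induction at 12 months (-0.60 beside -0.32), and at 30 against 24 months in the Esr1 (-0.36 beside -0.36) and the CYP19A1 model (-0.31 beside -0.18).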

How the data were processed

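Total RNA was depleted of ribosomal RNA and read as stranded single ends of 75 bases, per the labels' protocols. The authors deposited 1 table of TPM, and the submitters' processing notes name RSEM 1.3.1 and STAR 2.7.9a, with mm10 as the build, besides Trim Galore 0.6.5 and FastQC 0.11.9. The annotation is not given in the sources used here. All 98 members matched GENCODE M21, as did 55394 of 55487 identifiers without their version, which gave positions, lengths, hosts and sequences. The host was the same-strand gene that spans the snoRNA, protein-coding before noncoding, the shortest first. RSEM divides reads by an effective length, so values of genes near the read length rest on few possible read starts, and identical copies share reads.

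Values were taken as log2(TPM + 1). Genes that reached 1 TPM in 3 libraries or more entered 1 limma 3.58.1 fit of all 48 libraries (R 4.3.3, trend, two-sided, Benjamini-Hochberg over 20209 genes). The fit was tested on simulated data. Correlations used 100000 permutations and were adjusted over 4 hosts, 1 of which is not reported here (Python 3.11.15, numpy 2.4.6). Named members are the 15 with the highest median, those called or else the up to 2 with the smallest p without overlap in a comparison, the genes U8 and U13, and the members of the host clusters, and Snord genes called under an alternative were added. The members and lists were chosen with earlier results of these data known. Same-numbered libraries deviated together, with a correlation over 0.1 in every pair (0.177, 0.251 and 0.106), in 1 of 14 comparisons of 2 groups, CYP19A1 30 against 24 months. The alternatives were other pseudocounts, no filter, 2 rescalings, only the compared groups, a replicate block, no libraries rich in ribosomal RNA, and leaving out each library.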

Additional observations from a re-analysis of the deposited data

How the results depend on the processing

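In 15 of 16 comparisons 0 members were called, and the count stayed at 0 under the alternatives tried, with these exceptions. Fitting only the compared groups called 1 member, Snord53, in Esr1 glands of 24 against 12 months. Leaving out 1 library gave 0 to 1 for 1 week of CYP19A1 induction at 12 months (Snord70, without uninduced replicate 1, when 12421 of all genes were called) and 0 to 1 for CYP19A1 glands of 24 against 12 months (Snord15b or Snord66). Between the uninduced models the count of 1 became 2 with median-of-ratios rescaling and 4 with rescaling to the protein-coding sum. It became 1 to 2 when 1 library was left out. Snord45c stayed called in all of these. Without the libraries rich in ribosomal RNA only 1 CYP19A1 library is left at 12 months, so no count is given there. The median of all genes between the models moved to 0.02 with median-of-ratios rescaling and to -0.06 with the protein-coding sum, against 0.10. For 1 week of CYP19A1 induction at 12 months no value without libraries rich in ribosomal RNA exists, because no induced library is left. The replicate block changed no count of called members, with 0 in each of the 15 comparisons and 1 between the models.

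The correlation for Rpl13a was 0.16 with median-of-ratios and 0.20 with protein-coding rescaling, and 0.26 to 0.41 leaving out 1 library. For Gas5 it was -0.0115 to 0.108 leaving out 1 library. The cause of these moves was not tested. With 3 libraries a group and 40.7% of entries at 0, a call needs a large change, and depth is unknown.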
